A study of Mus musculus with 4 samples.

Results

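The Rab small GTPases were taken as the probe sets whose only gene symbol is Rab, then digits, then optional lower-case letters. Of 45101 probe sets on the array, 139 met this rule, and they stood for 63 gene symbols out of 18194 in the series. Of the 63 symbols, 59 are Rab GTPase genes. The other 4 share the spelling only: Rab3ip, an exchange factor for Rab8, Rab5if, an interacting factor of Rab5, and the opposite-strand transcripts Rab10os and Rab26os. They were kept in every count, as the rule requires, and are named where they appear.

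Rab proteins are membrane-bound switches. With GTP bound they sit on the surface of one kind of organelle and recruit motors, tethers and fusion proteins. Exchange factors load them with GTP, GTPase-activating proteins switch them off, and prenylation enzymes and GDP dissociation inhibitors move them on and off membranes. In T cells they carry antigen receptors, cytokines, integrins and lytic granules to and from the cell surface.

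Expression was measured on 4 arrays of sorted mouse CD4+ YFP+ Ly5.2+ T cells, 1 array per sample. Both groups were peripheral regulatory T (Treg) cells treated with HR-MMPCreGFP, which brings in Cre recombinase, with YFP as the sign that Cre had acted, and both were collected 6 weeks after adoptive transfer. In 1 group (2 arrays, called deleted here) the Foxp3 gene was flanked by loxP sites, so that Cre could remove it. In the other group (2 arrays, called wild type) Foxp3 was wild type. The labels do not say whether the 2 samples of a group came from separate animals, how many animals were pooled, or their age.

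Foxp3, the transcription factor of the Treg lineage, read 437.8 and 429.8 (intensity) in the deleted arrays against 2693.5 and 2404.4 in the wild-type arrays, so 17.0% of the wild-type signal was left (log2 difference -2.55, SE 0.26, adjusted p = 0.115 in limma). How this probe set lies to the exons that Cre removes is unknown here, so it checks the labels only by direction. Markers of CD4 T cells were present: Cd3d, Cd3e, Cd3g, Cd4 and Cd5 lay above a mean log2 intensity of 4, below which values crowd at the floor of the arrays. Cd8a and Cd8b1 lay below 4. The 5 Treg markers lay above that level, with summed intensities of 2730.6 and 4673.9 in the deleted against 17588.8 and 18827.7 in the wild-type arrays. Beside Foxp3 these were Il2ra, Ctla4, Ikzf2 and Tnfrsf18, each lower in both deleted arrays than in both wild-type arrays. Of the 6 myeloid markers, Csf1r and Lyz2 lay above that level, and the summed intensity of the list was 1788.6 in deleted replicate 1 against 491.2 to 610.1 in the other 3 arrays. Of the 3 natural killer cell markers, Eomes and Tyrobp did, with a sum of 498.6 in deleted replicate 1 against 127.7 to 136.8 elsewhere, while the defining receptor Ncr1 was at the floor. Of 4 B cell markers Cd79b alone did, with sums of 43.9 and 56.0 in the deleted and 126.4 and 117.1 in the wild-type arrays. The part of such cells in the results was not tested. For many of the genes described, though not all, differences with single arrays left out are given. In such bulk samples fewer cells of a type and less RNA per cell cannot be told apart.

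Of the 139 Rab probe sets, 78 from 43 symbols had a mean log2 intensity of at least 4 over the 4 arrays and were tested with limma among 16281 probe sets. The share above this filter was 56.1% for the Rab probe sets and 36.2% for all probe sets. The Rab symbols with no probe set above the filter were 20 in number, among them Rab27b, Rab32, Rab38, Rab7b, Rab13, Rab25 and Rab3c. Just below the filter lay probe sets of Rab2a (3.9), Rab27b (3.68) and Rab5if (3.65), and just above it Rab31 (4.03), Rab8a (4.05) and Rab23 (4.13), as mean log2 intensities. Rab39b, Rab4a, Rab31 and Rab23 passed with 1 group below 4, so the counts that follow describe the tested probe sets and not every Rab gene.

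No Rab probe set passed an adjusted p of 0.05, the limma test with Benjamini-Hochberg adjustment over all tested probe sets, where the background was 0 percent (0 of 16281). At an unadjusted p below 0.05 there were 6 Rab probe sets, or 7.69%, against 9.26% of all tested probe sets. They belonged to Rab39b, Rab4a, Rab6b, Rab22a, Rab23 and Rab6a. By size, 3 Rab probe sets were higher in deleted cells by at least 1 on the log2 scale with no overlap between the groups (3.85%, background 6.67%), and 5 were lower by as much (6.41%, background 4.58%). Counted at any size, both deleted arrays lay above both wild-type arrays for 15 Rab probe sets (19.2%, background 18.9%) and below them for 17 (21.8%, background 21.1%). The share called at any size was near the background in both directions. Without deleted replicate 1 the counts by size were 6 higher (7.69%, against 9.99% of all tested probe sets in the same fit) and 6 lower (7.69% against 7.35%). The median difference over the 78 probe sets was 0.021 on the log2 scale, against 0.0058 over all tested probe sets, and the median size of a difference was 0.38 against 0.37. The gap between the 2 deleted arrays had a median size of 0.37 and that between the 2 wild-type arrays 0.39, where all tested probe sets had 0.43 and 0.45. Single probe sets depended on single arrays: leaving out deleted replicate 1 moved the difference by over 1.5 times, or turned its sign, for 47 of the 78. Leaving out each of the other 3 arrays did so for 46 to 51. Differences near zero are easily counted by this rule, such as 0.0022 for Rab8b (0.095 without deleted replicate 1). The same share over all tested probe sets was not computed.

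**Figure D1:**
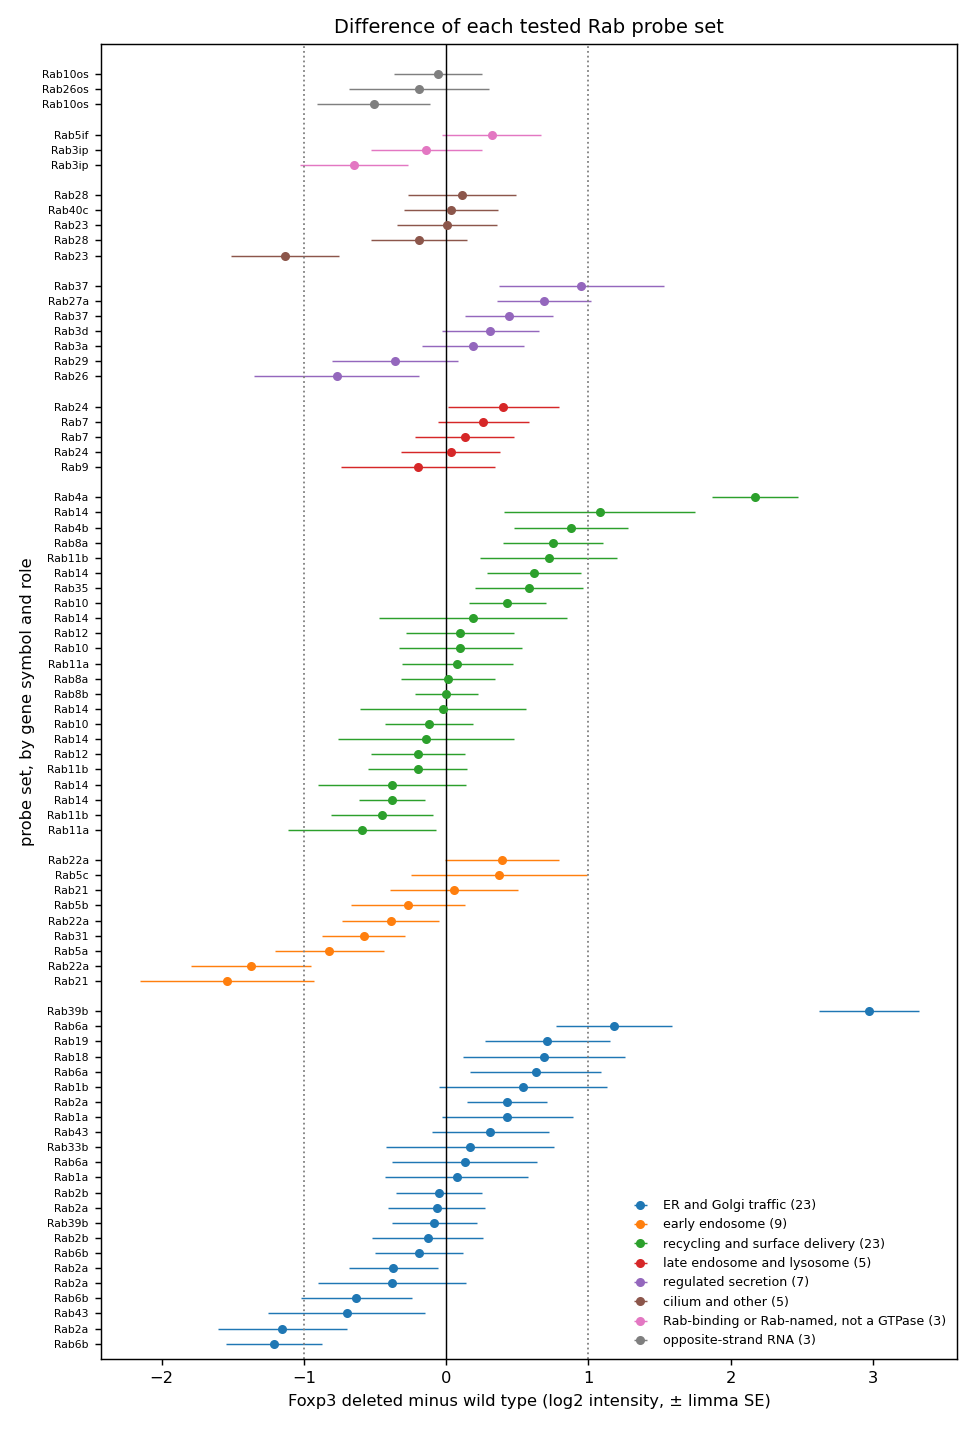
Difference between deleted and wild-type cells (log2 intensity, x axis) of each of the 78 tested Rab probe sets, grouped by the role of the gene and labelled by symbol, with bars of 1 limma standard error on each side and dotted lines at -1 and 1. Most lie within 1 of zero, with Rab39b (2.97) and Rab4a (2.17), whose wild-type values lie near the floor, far to the right and Rab21 (-1.54) farthest to the left.

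Rab39b is an X-linked gene for a Rab of the early secretory pathway whose loss in humans causes intellectual disability with parkinsonism. Its probe set 1453246_at read 6.42 and 6.14 (log2 intensity) in the deleted arrays against 3.06 and 3.57 in the wild-type arrays. The deleted arrays were both above both wild-type arrays, which lay near the floor. With values below 4 raised to 4, so that the floor bounds the wild-type level, deleted cells were at least 4.86-fold higher, 2.28 on the log2 scale (adjusted p = 0.166 in limma). The group means as measured were 6.28 and 3.31, a difference of 2.97 (SE 0.35, adjusted p = 0.129) whose size depends on values near the floor. With single arrays left out the difference as measured lay between 2.71 and 3.22. The probe set passed the filter only through the deleted arrays. The other tested Rab39b probe set, 1435014_at, read 4.71 and 4.66 against 4.80 and 4.73, a difference of -0.082. The 2 probe sets of this gene therefore gave different answers, and their places in the transcript are unknown here.

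Rab4a, the GTPase of fast recycling from early endosomes, which in T cells is known to act on CD4 and on the receptor zeta chain, also differed on 1 probe set. That probe set, 1449048_s_at, read 5.40 and 5.41 (log2 intensity) in the deleted against 3.38 and 3.08 in the wild-type arrays. The groups were clearly apart, with the wild-type arrays again near the floor. Deleted cells were at least 2.64-fold higher, 1.40 on the log2 scale, with values below 4 raised to 4 (adjusted p = 0.234 in limma). The means as measured were 5.40 and 3.23, a difference of 2.17 (SE 0.30, adjusted p = 0.164), and this probe set too passed the filter only through the deleted arrays. With single arrays left out that difference lay between 2.02 and 2.32. The suffix "_s_at" marks probes that can match more than one transcript, and the other Rab4a probe set, 1418341_at, was at the floor in all 4 arrays (2.16 to 2.19).

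The closely related Rab6a and Rab6b differed in opposite directions. Both act in transport from the Golgi back to the endoplasmic reticulum, Rab6a in all cells and Rab6b mainly in neurons. Rab6a (1448304_a_at) read 9.06 and 9.02 (log2 intensity) in the deleted arrays, with 8.29 and 7.44 in the wild type. Rab6b (1434914_at) read 7.59 and 7.72 in the deleted arrays, with 9.03 and 8.70 in the wild type. In neither gene did the groups overlap on these probe sets. Rab6a was higher in deleted cells by 1.18 (SE 0.41, adjusted p = 0.495 in limma) and Rab6b was lower, at -1.21 (SE 0.34, adjusted p = 0.401). The other tested Rab6a probe sets differed by 0.63 (0.24 to 1.01 with 1 array left out) and 0.13 (-0.36 to 0.61), with overlap. The other tested Rab6b probe sets differed by -0.63 (-0.91 to -0.35) and -0.19 (-0.4 to 0.016). With all arrays the 3 of each gene shared a sign, but the smallest difference of each gene turned sign with 1 array left out. Without wild-type replicate 2 the difference of Rab6a was 0.75, and Rab6b ranged from -1.38 to -1.05 over the arrays left out. The contrast between the 2 genes was not tested.

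**Figure D2:**
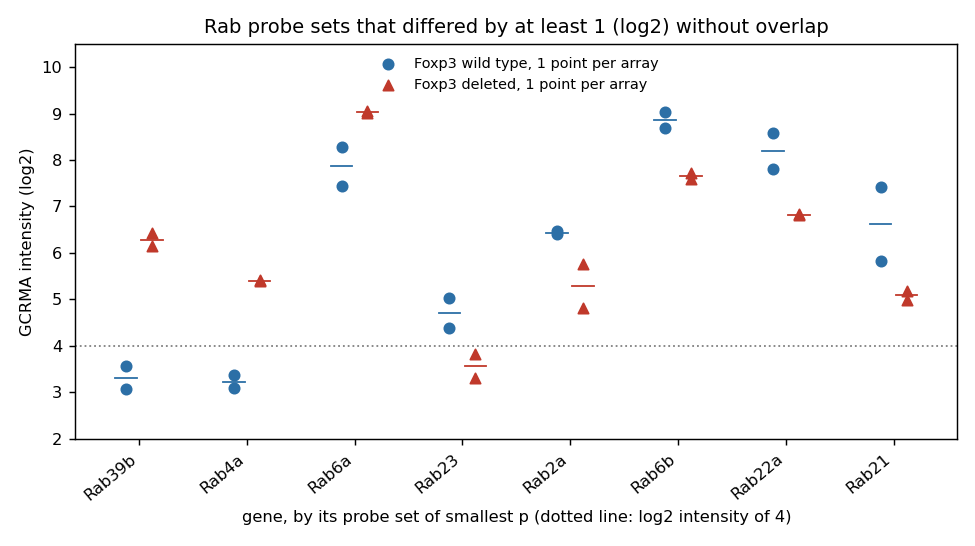
GCRMA intensity (log2, y axis) of the 8 Rab genes with a difference of at least 1 and no overlap, 1 point per array, short lines at group means, circles for wild-type and triangles for deleted cells, with a dotted line at 4. Rab39b, Rab4a and Rab6a are higher in deleted cells, and Rab23, Rab2a, Rab6b, Rab22a and Rab21 are lower, with the wild-type points of Rab39b and Rab4a and the deleted points of Rab23 below the dotted line.

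Promoters were read from RefSeq, since the protein removed here is a forkhead factor; those of Rab4a and Rab2a were not read here. Shown are the 250 bases before the annotated start for Rab39b and for the pair Rab6a and Rab6b. The probe sets of Rab39b disagreed, as did those of Rab21, Rab22a and Rab23, whose windows are not shown. All sequences shown are on GRCm38.p6, 5′ to 3′ on the strand of the gene. Rab39b lies at chrX:75578232-75578481 (minus strand), Rab6a at chr7:100607336-100607585 (plus strand) and Rab6b at chr9:103111824-103112073 (plus strand). Capitals mark matches on either strand to the forkhead word GTAAACA or the same word with its leading GT replaced by AT, GC or AC, the GC box GGGCGG, the CCAAT box and the TATA box TATAAA, and a base shared by 2 motifs counts for each.
Rab39b: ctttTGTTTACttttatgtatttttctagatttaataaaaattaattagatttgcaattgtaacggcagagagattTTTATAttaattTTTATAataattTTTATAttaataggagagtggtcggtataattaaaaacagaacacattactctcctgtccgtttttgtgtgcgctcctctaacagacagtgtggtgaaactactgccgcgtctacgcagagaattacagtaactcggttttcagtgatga
Rab6a: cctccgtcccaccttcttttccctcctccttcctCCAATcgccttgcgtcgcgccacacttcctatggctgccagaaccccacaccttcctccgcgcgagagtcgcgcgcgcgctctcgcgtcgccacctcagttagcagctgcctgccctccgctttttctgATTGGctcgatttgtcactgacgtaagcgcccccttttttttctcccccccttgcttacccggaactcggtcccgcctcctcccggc
Rab6b: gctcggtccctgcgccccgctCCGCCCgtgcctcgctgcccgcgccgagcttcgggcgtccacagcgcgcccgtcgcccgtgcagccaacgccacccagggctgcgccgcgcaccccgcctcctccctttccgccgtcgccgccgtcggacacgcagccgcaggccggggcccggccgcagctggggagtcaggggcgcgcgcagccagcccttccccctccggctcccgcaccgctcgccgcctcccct
The Rab39b window held 1 forkhead word, which begins 246 bases before the start, 3 TATA words and no GC box, and 31.6% of its bases were G or C. Rab6a held 2 CCAAT words at 62.8% G or C, and Rab6b held 1 GC box at 80.8%. No forkhead word was in the windows of Rab6a, Rab6b, Rab21, Rab22a or Rab23. Promoter windows were found for 52 Rab symbols (64 windows). A forkhead word was in 6.2% of them, 4 windows (Rab39b, Rab7, Rab17 and Rab43), against 15.7% of all 32851 RefSeq windows of this length. The GC box was in 67.2% against 32.7%, the CCAAT box in 42.2% against 33.8% and the TATA word in 7.8% against 12.4%. The median share of G or C was 60.6% against 52.4%. These are matches of letters in one window and show no binding.

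Among the Rabs of the endoplasmic reticulum and Golgi, 23 probe sets of 11 genes were tested out of 16 genes. Of these, 12 had a higher and 11 a lower mean in deleted cells, with a median of 0.073 on the log2 scale, and none passed the adjusted threshold. Rab2a, which acts between these organelles, had 5 tested probe sets from -1.15 to 0.43. The one at -1.15 (1449676_at, SE 0.45, adjusted p = 0.542 in limma) read 4.81 and 5.76 against 6.40 and 6.47. The deleted arrays were both lower on it, and by only 0.68 without deleted replicate 1, while the brightest probe set, 1418621_at, read 10.66 and 10.33 against 9.97 and 10.16 and so pointed the other way (0.43, or 0.26 without deleted replicate 1). Rab1a, needed for transport from the endoplasmic reticulum to the Golgi, read 11.55 and 10.38 against 10.51 and 11.28 on its brightest probe set, and the groups overlapped (0.073, SE 0.50). Rab18, linked to lipid droplets, read 6.70 and 5.82 against 5.0 and 6.13, also with overlap. Its difference of 0.69 (SE 0.57) was 0.25 without deleted replicate 1, 0.13 without wild-type replicate 1 and 1.26 without wild-type replicate 2. Rab19 was at 7.71 and 7.18 against 6.39 and 7.08, with both deleted arrays above (0.71, SE 0.44, and 0.37 without wild-type replicate 1).

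Rabs of the early endosome showed lower means more often than higher ones, 6 against 3 of 9 probe sets, with a median of -0.39. Both deleted arrays lay below both wild-type arrays for 5 of the 9 and above them for 0, where the backgrounds were 21.1% and 18.9%, and none passed the adjusted threshold. With 6 genes this is a description of these probe sets only. Rab22a, which sorts cargo in early and recycling endosomes, read 6.81 and 6.83 (log2 intensity) on 1451379_at in the deleted arrays against 8.59 and 7.80. All 4 values kept the groups apart, with a difference of -1.37 (SE 0.42, adjusted p = 0.437 in limma), or -0.98 without wild-type replicate 1. Its other tested probe sets differed by -0.39 and 0.39. Rab21, known for moving integrins, read 5.19 and 4.98 against 7.42 and 5.82 on 1437742_at, a difference of -1.54 (SE 0.61, adjusted p = 0.548). Wild-type replicate 1 was the high array there, and without it the difference was -0.74. The brighter Rab21 probe set, 1437741_at, read 9.74 and 8.82 against 8.93 and 9.53, where the groups overlapped and the difference was 0.053 (-0.0058 after quantile normalization).

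Rab5a, which drives fusion of early endosomes, had 1 probe set and read 10.42 and 9.51 (deleted) against 10.87 and 10.70 (wild type). Deleted replicate 2 was the lowest of the 4, and the difference of -0.82 (SE 0.38, adjusted p = 0.619 in limma) became -0.36 without it and -1.28 without deleted replicate 1. The other Rab5 genes overlapped between groups, with Rab5b at 4.61 and 5.07 against 5.43 and 4.80 and Rab5c at 6.22 and 7.70 against 6.91 and 6.26. Rab31, which carries cargo between the Golgi and endosomes, was close to the floor throughout, at 3.86 and 3.62 against 4.25 and 4.40 (-0.58, SE 0.29, and -0.33 with values below 4 raised to 4).

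Rabs of recycling and delivery to the surface made up 23 tested probe sets of 10 genes, with 14 higher and 9 lower means and a median of 0.078. For 7 of them both deleted arrays were above (background 18.9%), and for 4 below (background 21.1%). Beside Rab4a, its relative Rab4b read 7.73 and 7.86 (deleted) against 6.59 and 7.24 (wild type). The groups did not overlap, and the difference was 0.88 (SE 0.40, adjusted p = 0.601 in limma), or 0.55 without wild-type replicate 1. Rab8a, which brings vesicles to the plasma membrane and the cilium, read 6.78 and 6.85 against 5.91 and 6.21 (0.75, SE 0.35, adjusted p = 0.619), with a further probe set near the floor at 0.012. Its relative Rab8b was nearly level, at 11.38 and 11.57 against 11.56 and 11.38 (0.0022, SE 0.22), and the sign of that difference turned under other scalings of the arrays. Rab35, a Rab of fast recycling, read 6.65 and 7.15 against 6.25 and 6.39, with both deleted arrays above (0.58, SE 0.38, and 0.33 without deleted replicate 2).

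Rab14, which links the Golgi with endosomes, had 7 probe sets, all of them tested, which ranged from -0.38 to 1.08. The one at 1.08 read 8.26 and 7.0 against 5.88 and 7.21, so its groups overlapped. On 1419244_a_at the values were 9.42 and 9.09 against 8.49 and 8.78 (0.62, SE 0.33), while on the brightest, 1419246_s_at, they were 12.12 and 11.84 against 12.16 and 12.56 (-0.38, SE 0.23, and -0.18 without wild-type replicate 2). The groups were apart on both, in opposite directions. Rab11a and Rab11b, the GTPases of the recycling endosome, also disagreed between probe sets, from -0.59 to 0.078 and from -0.45 to 0.72. On their brightest probe sets Rab11a read 8.42 and 7.72 against 8.05 and 7.93 and Rab11b 8.53 and 9.0 against 9.13 and 8.80, all with overlap. On the Rab11b probe sets at -0.45 and 0.72 the groups were apart, in opposite directions. Rab10, which acts in exocytosis, read 10.16 and 10.13 against 9.59 and 9.83 on its brightest (0.43, SE 0.27). Its other tested probe sets differed by -0.12, with both deleted arrays below, and by 0.1 with overlap.

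Across genes, 22 symbols had 2 or more tested probe sets. For 10 of them all differences had one sign and for 12 they had both. Some of the 12 had both only through a value near zero, such as 0.053 for Rab21 and 0.0073 for Rab23. For 0 of the 22 did probe sets lie beyond 0.5 on both sides of zero. The same shares over all genes were not computed. The 5 genes of the 8 shown above by array whose tested probe sets had both signs were Rab39b, Rab2a, Rab21, Rab22a and Rab23. Rab23, a negative regulator of hedgehog signalling, read 3.83 and 3.30 against 5.02 and 4.38 on 1454876_at. The groups were apart, with deleted arrays below 4. With values below 4 raised to 4 it was at least 1.62-fold lower in deleted cells, -0.70 on the log2 scale, where the difference as measured was -1.13 (means 3.57 and 4.70, SE 0.38, adjusted p = 0.48 in limma). With single arrays left out, Rab23 lay between -1.45 and -0.81 on this probe set. Its brighter tested probe set, 1452113_a_at, read 5.35 and 4.83 against 5.08 and 5.08, with a difference of 0.0073 whose sign turned when arrays were centred on the median or quantile normalized.

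**Figure D3:**
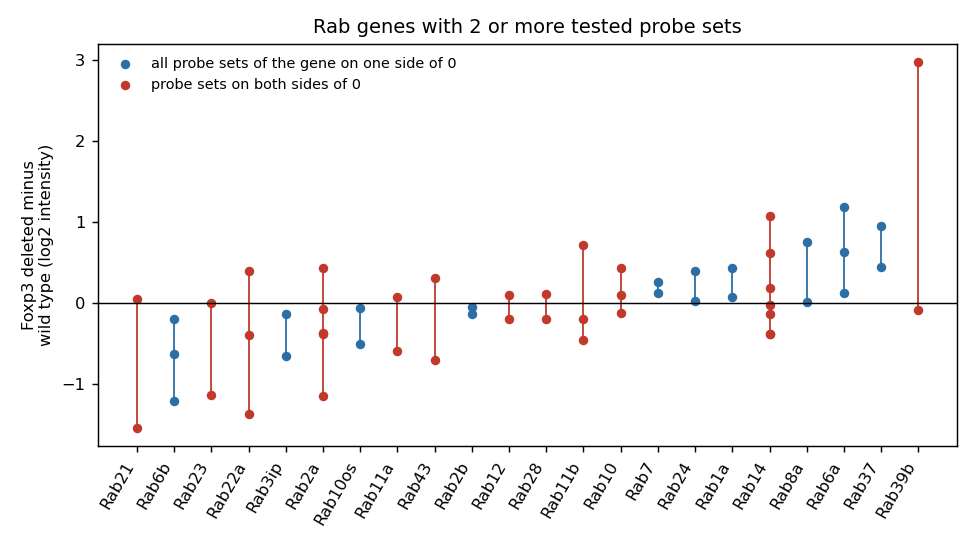
Difference between deleted and wild-type cells (log2 intensity, y axis) of every tested probe set of the 22 Rab symbols that have 2 or more, 1 point per probe set, with a line from the lowest to the highest. Blue marks 10 symbols whose points lie on one side of zero, such as Rab6a and Rab6b, and red marks 12 whose points lie on both sides, with Rab39b spanning -0.082 to 2.97.

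Rabs of regulated secretion and lysosome-related organelles were mostly below the filter, with 7 probe sets of 6 genes tested out of 28 probe sets of 12 genes. Of the 7, 5 had a higher mean and 2 a lower one, the median was 0.31, and none passed the adjusted threshold. Rab27a, which docks lytic granules and is lost in Griscelli syndrome, read 8.48 and 8.39 (deleted) against 7.88 and 7.62 (wild type) on 1429123_at. Both deleted arrays were above, by 0.69 on average (SE 0.33, adjusted p = 0.628 in limma), and without each array in turn the difference lay between 0.56 and 0.81. Its other 3 probe sets were below the filter, as were all 4 of Rab27b. Rab37, a Rab of secretory granules, read 8.52 and 8.27 against 6.69 and 8.19 on its brighter probe set. The difference of 0.95 (SE 0.58) rested on wild-type replicate 1 and was 0.20 without it, and the other probe set differed by 0.44.

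Rab3d, also of secretory granules, read 6.11 and 6.06 against 5.88 and 5.66 on the probe set above the filter, with both deleted arrays above (0.31, SE 0.34, and 0.20 without wild-type replicate 2). Rab29, a partner of the kinase LRRK2 that helps to recycle the T cell receptor, read 8.05 and 7.19 against 7.81 and 8.14, with overlap (-0.36, SE 0.44). Rab26 was at 4.77 and 4.78 against 6.31 and 4.78, so its lower mean came from wild-type replicate 1. Rab32 and Rab38, which serve melanosomes and related organelles, were below the filter, where their values lay between 2.78 and 3.62.

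Late endosomal Rabs stayed within 0.40 of zero. Rab7, which takes late endosomes to lysosomes, read 9.93 and 10.23 (deleted) against 10.06 and 9.58 (wild type) on its brighter probe set, and 6.04 and 5.99 against 6.03 and 5.75 on the other. The groups overlapped on both (0.26, SE 0.32, and 0.13, SE 0.35). The larger of these was 0.41 without deleted replicate 1 and 0.014 without wild-type replicate 2. The 5 tested probe sets of this group, from Rab7, Rab9 and Rab24, ranged from -0.20 to 0.40. For 0 of them were the groups apart, where the backgrounds were 18.9% above and 21.1% below. With 1 array left out, Rab9 ranged from -0.79 to 0.39 and the Rab24 probe set at 0.40 from 0.085 to 0.72.

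The 4 symbols that are no GTPase gave 6 tested probe sets. Rab3ip read 4.46 and 4.06 against 4.60 and 5.23 on one (-0.65, SE 0.38, adjusted p = 0.682 in limma) and differed by -0.14 on the other. The former was -0.34 without wild-type replicate 2 and -0.97 without wild-type replicate 1. Rab5if differed by 0.32 with overlap. The opposite-strand transcript Rab10os was lower in both deleted arrays on 1431818_at, at 7.11 and 7.80 against 8.09 and 7.83 (-0.51, SE 0.40, and -0.17 without deleted replicate 1), and by 0.056 on its other probe set, where the groups overlapped.

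Genes that switch Rabs on and off were read from lists drawn up for this purpose, and none of their probe sets passed the adjusted threshold. Of 37 exchange factor genes, 30 were tested with 42 probe sets, with a median of 0.037. Of these probe sets, 4 were higher and 4 lower by at least 1 without overlap (backgrounds 6.67% and 4.58%). The widest was Dennd2d, a DENN domain exchange factor for Rab9. Both of its probe sets were higher in deleted cells, at 6.95 and 6.41 against 4.29 and 3.83 (2.62, SE 0.39, adjusted p = 0.173 in limma) and at 9.02 and 8.53 against 5.95 and 6.39 (2.61, SE 0.39, adjusted p = 0.174). With single arrays left out the Dennd2d differences lay between 2.35 and 2.89. The DENN domain gene Dennd4c was higher by 1.91 (SE 0.43), at 9.12 and 8.27 against 6.84 and 6.72. Its relative Dennd4a was lower on both of its probe sets, at -1.44 and -1.43, and Rabgef1, an exchange factor for Rab5, was lower on both, at -1.04 (-0.58 without wild-type replicate 1) and -0.95.

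Of 38 GTPase-activating protein genes, 26 were tested with 40 probe sets, and again 4 were higher and 4 lower by that rule, with a median of -0.12. Rabgap1l had probe sets on both sides of zero, 4 in all, from -1.07 to 1.08. Tbc1d14 read 5.17 and 5.22 against 6.36 and 6.08 (-1.03, SE 0.34), with -0.45 on its other tested probe set. Tbc1d20, which acts on Rab1, read 5.68 and 6.93 against 4.77 and 4.87 (1.48, SE 0.52, and 0.86 without deleted replicate 2), with 0.28 on its other tested probe set. Of 9 genes for prenylation and membrane cycling, 7 were tested with 14 probe sets, 1 higher and 1 lower by that rule. The Rab escort protein gene Chm read 7.81 and 7.0 against 8.61 and 8.27 (-1.04, SE 0.43, and -0.63 without deleted replicate 2), with -0.14 on its other tested probe set. Rabggta, a subunit of the Rab prenyl transferase, read 6.42 and 6.22 against 5.54 and 5.45 (0.82, SE 0.34). Rabac1, a prenylated Rab acceptor, read 7.13 and 6.12 against 6.05 and 5.54 (0.82, SE 0.49, and 0.32 without deleted replicate 1). Of 48 effector genes, 29 were tested with 47 probe sets, 1 higher and 4 lower by that rule, with a median of -0.081. Myo5a, the myosin that Rab27a recruits through an adaptor, read 6.21 and 6.57 against 7.67 and 7.47 (-1.18, SE 0.36), though its 3 probe sets ranged from -1.18 to 0.25. Rilpl1 and Rilpl2, relatives of the Rab7 effector RILP, read 6.23 and 5.50 against 7.72 and 6.91 (-1.45, SE 0.49) and 8.49 and 8.64 against 9.10 and 9.49 (-0.73, SE 0.33), with -0.31 on the other tested probe set of Rilpl1. For all 4 lists the backgrounds were those given above, 6.67% higher and 4.58% lower.

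**Figure D4:**
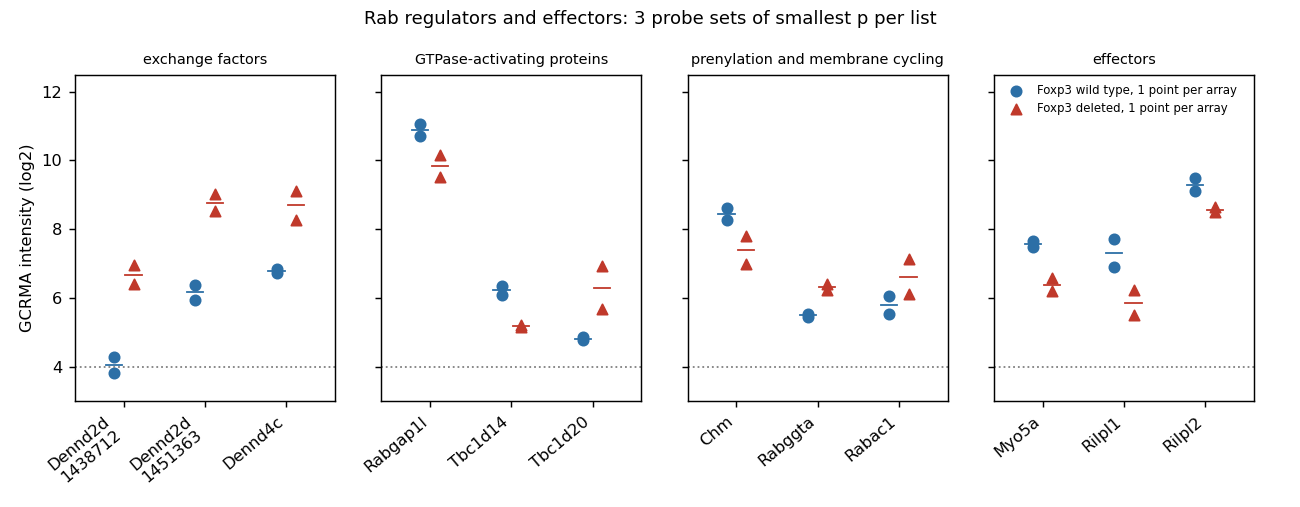
GCRMA intensity (log2, y axis) of the 3 probe sets of smallest p in each list of Rab regulators and effectors, 1 point per array, circles for wild-type and triangles for deleted cells, short lines at group means and a dotted line at 4. The 2 probe sets of Dennd2d and those of Dennd4c, Tbc1d20, Rabggta and Rabac1 stand higher in deleted cells. Rabgap1l, Tbc1d14, Chm, Myo5a, Rilpl1 and Rilpl2 stand lower.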

How the data were processed

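Total RNA was extracted with Qiagen RNeasy and labelled with biotin through the Ambion Message Amp II kit, per the labels. Linear intensities were deposited, and the submitters' processing notes name GCRMA 1.1.3, whose sequence-based background correction leaves dim probe sets close to a floor. The arrays had 35.8% to 36.1% of probe sets at a log2 intensity of at least 4, and no array equalled another.

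Values were taken to log2 with no pseudocount. Of 45101 probe sets, 64 controls were left out, and 16281 with a mean of at least 4 were fitted by limma 3.58.1 under R 4.3.3 (lmFit and trended eBayes, 2 residual and 2.98 prior degrees of freedom), two-sided, with Benjamini-Hochberg adjustment over them all. The script was run on simulated data, where only the size of the recovered difference was checked. With 2 arrays per group an exact permutation test of a single value cannot go below 0.333. The number of arrays limits precision, and since the labels name no separate animals or cultures, p-values reflect spread among samples that may be purely technical. Symbols came from the platform annotation, and all 139 matched the gene table of GRCm38.p6. Python 3.11.15, pandas 2.3.3 and matplotlib 3.10.9 prepared tables and plots.

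Members and lists were chosen with earlier results of these data known. Named were Rab genes with a difference of at least 1 without overlap, the 8 next by p and textbook Rabs of endosomes and T cells, with the 3 regulator probe sets of smallest p per list. Rab19, Rab26, Rab9, Rab24, Rab10os, Rab5if, Dennd4a and Rabgef1 were named after their values were seen. Alternatives covered the filter, the floor, scaling, the trend, a replicate block, 1 value per gene and leaving out each array.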

Additional observations from a re-analysis of the deposited data

How the results depend on the processing

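With all 4 arrays no Rab probe set or gene passed an adjusted p of 0.05 in limma under any setting. The smallest adjusted p of a Rab feature ranged from 0.0751 to 0.372 in limma over these settings. Over all features, 20 passed with a filter of 6 and 30 with the mean over probe sets of a gene, against 0 otherwise. The count higher by at least 1 without overlap was 3, fell to 1 with a filter of 6 (fewer probe sets tested) and ranged from 4 to 8 when 1 array was left out (5.13% to 10.3%, against 6.27% to 13.9% of all tested probe sets). With the filter of 6 it was 2.22% against 5.82%. With the mean over probe sets of a gene the count higher was 2 (4.65% against 5.37%). The count lower was 5, fell to 2 with that filter and with the brightest probe set per gene and to 0 with the mean over probe sets (fewer values tested), and ranged from 3 to 7 without 1 array (3.85% to 8.97%, against 6.13% to 8.69%, the 3 without wild-type replicate 1). The lower shares of the Rab features were 4.44% with the filter of 6, 4.65% with the brightest probe set and 0% with the mean. Over all features they were 3.86%, 4.93% and 4.37%. With values below 4 raised to 4 the count lower was 4 (5.13% against 4.23%). A lone array was assumed to vary like the other group.

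With the brightest probe set, Rab21 was at 0.053, Rab23 at 0.0073, Rab2a at 0.43 and Rab14 at -0.38. With the mean, Rab11a was at -0.26 and Rab11b at 0.025. Centring turned Rab23 1452113_a_at (-0.0048) and Rab8b (-0.0098), and quantile normalization those (-0.036 and -0.031) and Rab21 1437741_at (-0.0058). The cause was not tested. Leaving out 1 array turned the sign of 13 of the 41 Rab probe sets named by rule, with ranges of -0.27 to 0.43 (Rab11a), -0.43 to 0.04 (Rab11b), -0.51 to 0.65 (Rab1a), -0.4 to 0.51 (Rab21 1437741_at), -0.25 to 0.26 (Rab23 1452113_a_at), -0.79 to 0.077 (Rab29), -0.97 to 0.21 and -0.23 to 0.099 (Rab2a 1418622_at and 1419945_s_at), -0.59 to 0.041 (Rab5b), -0.37 to 1.11 (Rab5c), -0.36 to 0.61 (Rab6a 1448305_at), -0.4 to 0.016 (Rab6b 1437107_at) and -0.09 to 0.095 (Rab8b).

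Arrays of equal replicate number deviated oppositely from their group means (r = -0.243 over all tested probe sets). Over the tested Rab probe sets r was -0.389. With so few arrays per group, the deviations within a group mirror each other. These correlations therefore cannot decide whether arrays of equal replicate number were prepared together. The replicate block called 0 Rab probe sets, with 3 higher and 5 lower by size, and the crossed replicate block, added after seeing the data, likewise called 0.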
